A study of Mus musculus with 8 samples.

Results

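The hemoglobin and erythroid genes Hba-a1, Hba-a2, Hbb-bs, Hbb-bt, Alas2, Klf1, Epor, Slc4a1 and Car2 were followed in RNA-sequencing of myeloid cells sorted from mouse spleen. The 9 genes were chosen by name, as globins and as heme, transcription factor, receptor and membrane genes of red cells, and each has 1 row among the 23084 genes listed. The series holds 8 samples in 4 groups of 2, namely CD11b+Ly6C+ (monocytic) and CD11b+Ly6G+ (granulocytic) cells from wt mice and from LmnaMyeKO mice. All mice were 6 to 8 weeks old on a C57BL/6 background. LmnaMyeKO mice carry floxed alleles of Lmna, which encodes lamin A/C, and LysM-Cre, which is active in myeloid cells. Spleen suspensions were treated to lyse red cells before staining and sorting, and the labels do not say whether the samples of a group came from separate mice. The subset was taken from the sample titles, because the label for cell markers gives CD11b+Ly6C+ for all 8.

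The level used here is the authors' mean normalized count, that is, estimated counts divided by a size factor for each library and averaged over libraries. It is a single value per gene. It mixes both genotypes and both subsets, so it carries no error between samples, and no difference between wt and LmnaMyeKO cells was analysed here. The fold changes and p-values deposited beside it come from the authors' own comparison and were not used. In such pooled values, fewer cells of a type and less RNA per cell cannot be told apart.

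Hemoglobin is built from alpha-like and beta-like globin chains, each holding a heme group. In the adult mouse, the alpha chains come from the neighbouring genes Hba-a1 and Hba-a2, and in C57BL/6 mice the beta chains come from Hbb-bs and Hbb-bt. Erythroid precursors make these chains under transcription factors such as GATA1 and KLF1, need erythropoietin through its receptor Epor, and lose the nucleus before they become reticulocytes. The spleen is a site of both erythropoiesis and red cell clearance in the mouse.

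The copies within each globin pair are nearly the same sequence, which bears on how reads are divided between them. Hba-a1 (ENSMUSG00000069919) lies on chr11:32283511-32284465 and Hba-a2 (ENSMUSG00000069917) on chr11:32296489-32297298 of mm10, both on the plus strand, with starts 12978 bases apart. Their coding sequences of 429 bases differ at 1 base, C381T, counted from the A of the start codon with the Hba-a1 base first. It is the third base of codon 127, in exon 3 of 3. The stretch from coding base 351 to 410 is shown because it holds this difference, in capitals.
Hba-a1: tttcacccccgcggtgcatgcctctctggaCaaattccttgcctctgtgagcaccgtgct
Hba-a2: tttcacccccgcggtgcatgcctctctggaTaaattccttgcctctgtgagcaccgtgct

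Hbb-bs (ENSMUSG00000052305) lies on chr7:103826534-103828096 and Hbb-bt (ENSMUSG00000073940) on chr7:103812524-103813996, both on the minus strand, with starts 14100 bases apart. Their coding sequences of 444 bases also differ at 1 base, C417T with the Hbb-bs base first, the third base of codon 139 in exon 3 of 3. The last 60 coding bases are shown, again with the difference in capitals.
Hbb-bs: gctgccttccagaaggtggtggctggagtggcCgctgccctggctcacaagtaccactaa
Hbb-bt: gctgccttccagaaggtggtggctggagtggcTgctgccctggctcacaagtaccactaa

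Of the stretches of 50 bases in the GENCODE transcript of Hba-a2, 13.1% occur in no transcript of another gene, and 32.5% of those of Hba-a1. The corresponding shares are 34.2% for Hbb-bs and 41.7% for Hbb-bt. Every shared stretch of an alpha globin is shared with the other alpha globin, and likewise for the beta globins. For Hba-a1, GENCODE M21 starts the gene 161 bases before the RefSeq start, against 3 bases for Hba-a2, and its transcript is the longer one (699 against 554 bases). All stretches of 50 bases in Alas2, Klf1, Epor, Slc4a1 and Car2 are their own. The division of reads within each globin pair is thus uncertain, whereas the pair sums and the other 5 genes are not affected by it.

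Upstream sequence was available for 7 of the 9 genes, from RefSeq on GRCm38.p6. The 150 bases before the RefSeq start are shown for 6 of them. They are shown because they carry letters that erythroid factors and the basal machinery are known to read. GENCODE M21, used for lengths and gene positions, starts Hba-a1 and Hbb-bs upstream of the whole window. It starts Hbb-bt, Alas2 and Klf1 inside the window. Capitals mark CACCC (a core of KLF1 sites), GATAA (a core of GATA1 sites), CCAAT and TATAA, on either strand. They lie at chr11:32283522-32283671, plus strand for Hba-a1, chr7:103827929-103828078, minus strand for Hbb-bs, chr7:103813924-103814073, minus strand for Hbb-bt, chrX:150547267-150547416, plus strand for Alas2, chr8:84901832-84901981, plus strand for Klf1 and chr9:21963577-21963726, minus strand for Epor.
Hba-a1: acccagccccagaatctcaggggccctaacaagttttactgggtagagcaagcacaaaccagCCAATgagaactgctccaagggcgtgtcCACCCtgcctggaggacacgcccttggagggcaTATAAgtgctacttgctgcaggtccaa
Hbb-bs: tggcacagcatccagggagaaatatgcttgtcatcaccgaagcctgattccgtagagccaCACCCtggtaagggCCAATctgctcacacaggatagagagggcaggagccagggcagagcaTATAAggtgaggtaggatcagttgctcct
Hbb-bt: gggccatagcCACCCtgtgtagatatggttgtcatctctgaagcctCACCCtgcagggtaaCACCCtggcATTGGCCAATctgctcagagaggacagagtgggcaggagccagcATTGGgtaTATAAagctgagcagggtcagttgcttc
Alas2: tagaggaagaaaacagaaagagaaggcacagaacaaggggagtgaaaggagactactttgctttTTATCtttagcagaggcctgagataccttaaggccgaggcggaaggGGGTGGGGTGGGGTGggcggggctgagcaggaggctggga
Klf1: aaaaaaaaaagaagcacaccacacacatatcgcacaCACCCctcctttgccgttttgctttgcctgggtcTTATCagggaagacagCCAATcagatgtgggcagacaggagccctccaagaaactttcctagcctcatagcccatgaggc
Epor: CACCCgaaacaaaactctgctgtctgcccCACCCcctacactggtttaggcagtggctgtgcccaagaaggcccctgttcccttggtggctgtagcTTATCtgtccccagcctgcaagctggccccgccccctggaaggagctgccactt

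CACCC occurred in all 7 windows, against 37.4% of 32851 windows of the same length across RefSeq genes. TATAA occurred in the 4 globins and in none of Alas2, Klf1 and Epor, against 14.2% of all windows, and began 27 to 30 bases before the start. GATAA occurred in Alas2, Klf1 and Epor and in none of the 4 globin windows, against 13.3% of all windows. CCAAT occurred in the 4 globins and in Klf1, against 24.5%. In Hbb-bt, the CCAAT at -75 directly follows the same motif on the other strand at -80. The window of Hba-a2 is not shown because its 300-base promoter sequence shares a run of 297 bases with that of Hba-a1. The longest run shared by the promoters of Hbb-bs and Hbb-bt is 14 bases, so the beta pair differs upstream where the alpha pair does not. These matches are letters in a window and not measured binding.

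The steps of the low values show which libraries were averaged. A gene with few reads has a mean that is a sum of whole reads, each worth a fixed amount that depends on its library. Reads here are the authors' estimated counts, which are whole numbers at this step. All 555 distinct values below 0.6 were matched by whole reads of 8 libraries, with a largest residual of 5.16e-10. The mean therefore covers 8 libraries, as many as the series has samples. Their size factors run from 0.796 to 1.05 in 7 libraries and reach 1.91 in the other, and they could not be tied to sample labels. Every matched gene had reads in at least 2 libraries.

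The globins had the highest levels among the 9 genes. Hbb-bs, one of the beta globin genes, had a mean normalized count of 8580, rank 478 of 23084 genes. Hba-a2 had 5730 (rank 820) and Hba-a1 had 4661 (rank 1040). Hbb-bt, the other beta globin gene, was lowest of the globins at 1851 (rank 2696). All of them lay far above the median of all genes listed, 46.8, with Hbb-bs at 183 times that median and Hbb-bt at 39.5 times. Among the protein-coding genes listed the median was higher, at 257. Counts of genes above the median of all genes, given below, use the lower bar of 46.8. Together the 4 globins summed to 20822, or 0.0825% of the summed mean of all genes.

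**Figure D1:**
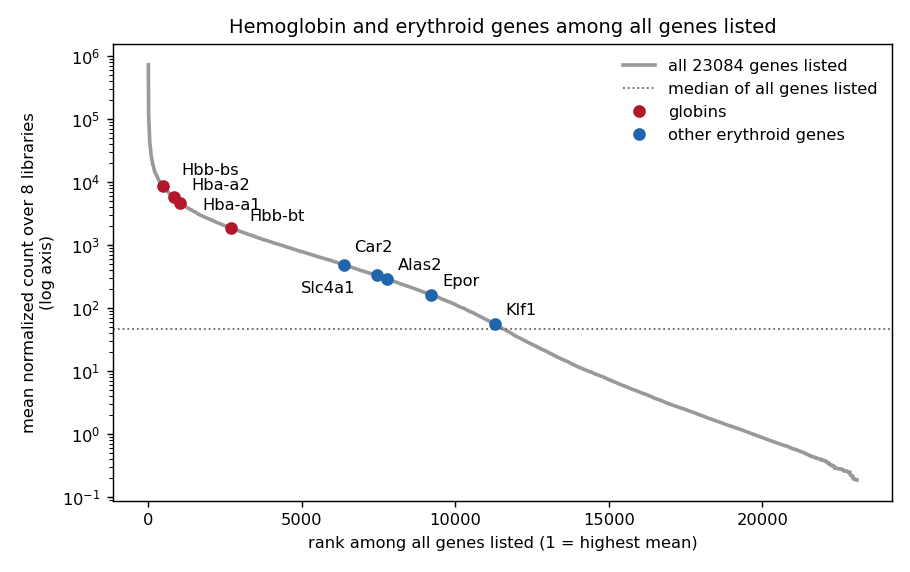
Mean normalized count over 8 libraries (log axis) against rank for all 23084 genes listed (grey curve), with the 4 globins in red, the other 5 erythroid genes in blue and the median of all genes as a dotted line. The globins sit between ranks 478 and 2696, the other genes between 6360 (Car2) and 11278 (Klf1), and Klf1 is just above the median of 46.8.

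The summed alpha and beta levels were nearly equal. Hba-a1 and Hba-a2 summed to 10391 and Hbb-bs and Hbb-bt to 10431, a ratio of 0.996. Counts grow with transcript length, so the sums were also compared per kilobase. Per kilobase of the longest transcript, alpha globins had 17011 and beta globins 16296, a ratio of 1.04, and the coding length gave 1.03. The shortest coding transcript gave 0.717, since for Hbb-bs that is a transcript of 407 bases, shorter than the 441 coding bases before its stop codon. Without values for single libraries, it cannot be said whether these ratios differ from 1.

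Within the pairs, the division was more even for alpha than for beta globins. Hba-a2 held 55.1% of the alpha sum and Hbb-bs held 82.3% of the beta sum, so that Hbb-bs was 4.64 times Hbb-bt and Hba-a2 was 1.23 times Hba-a1. Both divisions rest on the reads that cover a difference between the copies.

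The embryonic beta-like globins Hbb-y and Hbb-bh1, which are used in primitive erythroid cells of the embryo, were near the bottom of the table. The mean normalized count was 0.275 for Hbb-y and 1.03 for Hbb-bh1. At this level the whole reads behind the mean could be worked out, with 1 solution each. Hbb-y had 1 read in each of 2 libraries and none in the other 6. Hbb-bh1 had 8 reads in 6 libraries, 3 in one of them and 1 in each of the other 5. Hbq1b, a theta-like globin gene that lies between Hba-a1 and Hba-a2, had a mean of 2.55, from 19 reads in 6 libraries and at most 6 in one. The adult globins of the same clusters thus had means from 1851 upward, while no library held more than 6 reads of any of these 3 genes. Hba-x, Hbb-bh2 and Hbq1a were not analysed here.

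**Figure D2:**
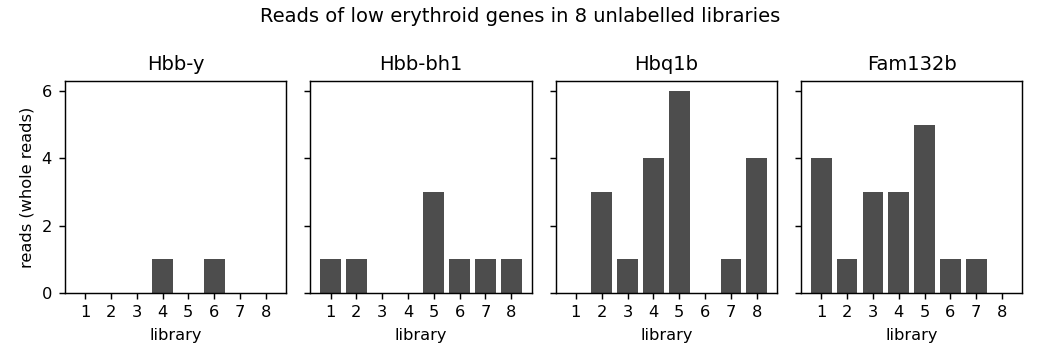
Whole reads (estimated counts as rounded for the authors' test) of the embryonic globins Hbb-y and Hbb-bh1, of Hbq1b and of Fam132b in each of 8 libraries, numbered by decreasing size factor and not tied to sample labels. Hbb-y has 2 reads in all, Hbb-bh1 8, Hbq1b 19 and Fam132b 18, and no bar exceeds 6.

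Alas2, the erythroid form of the enzyme that starts heme synthesis, had a mean normalized count of 289 (rank 7780, chromosome X). Per kilobase of the longest transcript this is 142. Alas1, the form used in most tissues, had 828 per kilobase, 5.83 times as much, against 8.89 times with the coding length and 9.72 times with no division by length. Of the 9 enzymes of heme synthesis, all were above the median of all genes listed. Per kilobase they ran from 65.8 for Uros to 828 for Alas1, with Urod at 392, Ppox at 368 and Fech, which inserts the iron, at 69.4. On this scale the erythroid form stood at the median of its own pathway, 142 per kilobase, but its place depends on the length used. With the coding length Alas2 was the lowest of the 9 enzymes, at 164 beside 168 for Alad and 181 for Uros. With no division by length it had 289, below the pathway median of 370.

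Klf1, the erythroid Kruppel-like factor that drives adult beta globin, was the lowest of the 9 genes with 55.1 (rank 11278, chromosome 8) and lay at 1.18 times the median of all genes. Among protein-coding genes it was below the median of 257, at percentile 32.9. Per kilobase it had 36, beside 24.6 for Gata1, 30.2 for Tal1 and 17.5 for Gfi1b, factors of the erythroid and megakaryocytic lineages. Other factors that erythroid cells use but that are also made in myeloid or lymphoid cells stood far higher. Nfe2 had 4020 per kilobase, Klf3 1420, Lmo2 929 and Ldb1 703, and Bcl11a had 163. Nfe2 was 163 times Gata1 on this scale. Zfpm1, the remaining factor of the list, had 80.8, between these and Klf1. The order of the low factors depends on the length used. With the coding length Tal1 had 129, above Klf1 (48.8), while Gata1 (37.8) and Gfi1b (29.2) stayed below it. Of the 10 factors listed, 9 were above the median of all genes and Gfi1b was below it.

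Epor, the receptor for erythropoietin, had a mean normalized count of 161 (rank 9222, chromosome 9). It too was below the median of protein-coding genes, at percentile 43.4 among them. Per kilobase of the longest transcript it had 91.6, which is 2.55 times Klf1, and 244.8 on its shortest coding transcript of 659 bases. Tfrc, the transferrin receptor that brings iron into dividing and erythroid cells, had 168 per kilobase. Fam132b, which encodes the hormone erythroferrone that erythroblasts release in response to erythropoietin, had a mean of 2.09, from 18 reads in 7 libraries and at most 5 in one.

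Slc4a1, which encodes the anion exchanger band 3 of the red cell membrane, had a mean normalized count of 329 (rank 7453, chromosome 11). Its transcript is the longest of the 9 at 4545 bases, and per kilobase of that transcript it had 72.5, between Epor and Klf1. Most partners of band 3 in the membrane and its skeleton were lower per kilobase. Rhag had 16.9, the spectrin gene Sptb 16.7, Ank1, which encodes the ankyrin that anchors band 3, 13.4, and Epb42 9.48. Epb41, a skeleton protein gene that many cell types use, was highest with 406. Of the 16 membrane and skeleton genes, 10 were above the median of all genes listed.

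Car2, carbonic anhydrase 2, a cytosolic enzyme abundant in red cells but also made in other tissues, was the highest of the genes other than globins with 485 (rank 6360, chromosome 3). Per kilobase of the longest transcript it had 271. Car1, the other main red cell form, had 226 per kilobase, so that Car2 was 1.2 times Car1, against 1.81 times with the coding length and 1.8 times with no division by length. Of the 14 carbonic anhydrase genes measured, 3 were above the median of all genes, namely Car1, Car2 and Car13, which had 35.2 per kilobase. The others had between 0.214 (Car5a) and 33 (Car9) mean normalized counts.

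**Figure D3:**
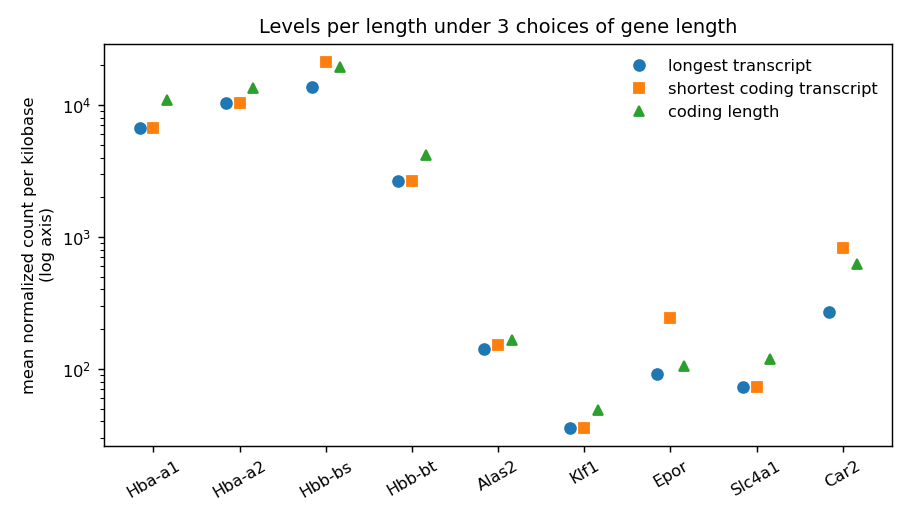
Mean normalized count per kilobase (log axis) of the 9 genes, with the longest transcript (circles), the shortest coding transcript (squares) or the coding length (triangles) as the length. The globins lie above the other 5 genes under each choice, and Car2 and Epor move most between choices.

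On the scale per kilobase the 9 genes fell into a globin group and a low group. The 4 globins had a median of 8505 per kilobase of the longest transcript and the other 5 a median of 91.6, and the lowest globin was 9.7 times the highest other gene. Car2, Alas2, Epor, Slc4a1 and Klf1 followed in this order, which cannot be tested without the spread between libraries and which depends on the length used. With the coding length Slc4a1 (118.2) was above Epor (106.1), and with the shortest coding transcript Epor (244.8) was above Alas2 (153). Counting error alone is small, since a mean of 55.1 stands for 351 to 842 reads over the libraries for Klf1 and a mean of 8580 for 54660 to 131332 reads for Hbb-bs. This gives a counting error of at most 5.34% for Klf1 and 0.428% for Hbb-bs, which does not include differences between mice, sorts or groups. For Hbb-bs it also leaves out the uncertain division of reads with Hbb-bt.

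Genes of later erythroid maturation spanned a wide range of levels. Bnip3l, needed to clear mitochondria from reticulocytes, had 1390 per kilobase, Blvrb, a biliverdin reductase, 923 and Slc25a37, the mitochondrial iron importer mitoferrin 1, 751, and all of these are also used outside red cells. Hemgn, Trim10 and Tspan33, which are more restricted to the erythroid lineage, had 30.7, 23.7 and 18.7. Prdx2, a peroxidase abundant in red cells, had 560. Bpgm, at 147, Xpo7, at 76.1, and Nprl3, at 51.9, lay between these values and those of Hemgn, Trim10 and Tspan33. Of the 16 genes of this list that were measured, 15 were above the median of all genes, with Fam132b below it, while Ahsp, the alpha globin chaperone, was not analysed here.

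The libraries also carried the markers of the sorted populations. Per kilobase of the longest transcript, the median was 56520 over 10 neutrophil markers, above the 8505 of the globins, and 2861 over 10 monocyte markers, below it. The monocyte list includes Itgam, the gene of CD11b, by which both subsets were sorted, so its median is not particular to monocytes. As a mean normalized count, the neutrophil gene S100a9 alone was 34.8 times the globin sum. Markers of other cell types were also present, and pooled levels do not show which cells carried them. Per kilobase, the median was 6603 for 10 red pulp macrophage markers, cells that take up spent red cells, 1138 for 10 B cell markers, 207.6 for 10 T and NK cell markers, 116.9 for 8 eosinophil and basophil markers and 27.67 for 9 platelet and megakaryocyte markers. All 10 macrophage markers were above the median of all genes, from 1901 (Cd163) to 31789 (Slc40a1, the iron exporter ferroportin) mean normalized counts. The restricted erythroid genes Klf1, Gata1, Hemgn and Trim10, at 23.7 to 36 per kilobase, thus lay near the median of the platelet list. Of the globins, Hbb-bs, Hba-a2 and Hba-a1 lay above the median of the macrophage list and Hbb-bt, at 2633, below it. The cells in which the erythroid transcripts arose, and whether the level differs between genotypes or subsets, were not tested.

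**Figure D4:**
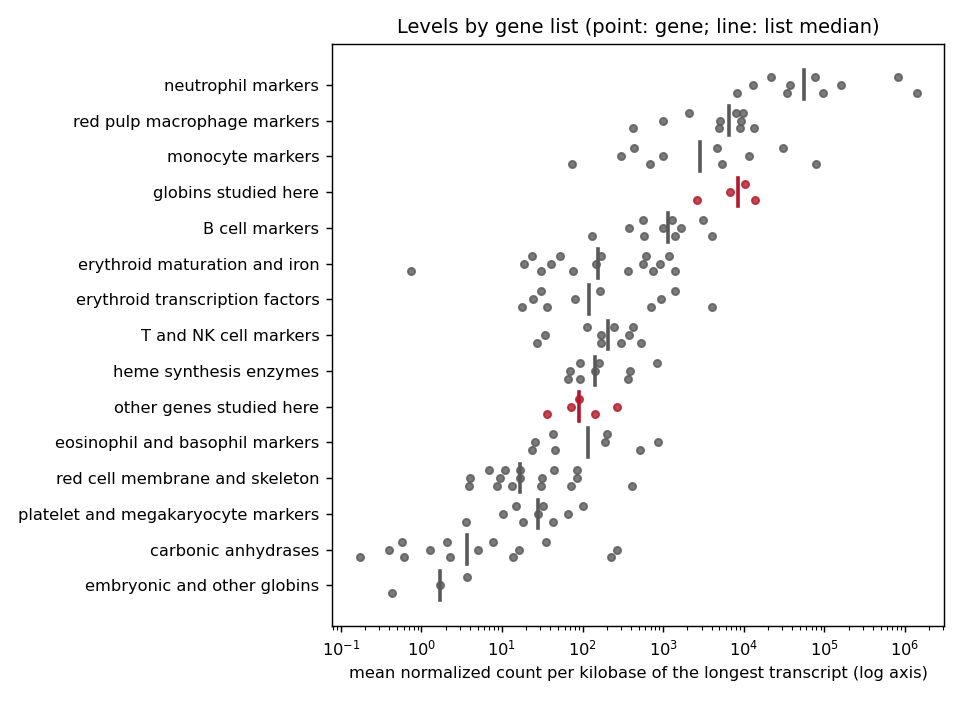
Mean normalized count per kilobase of the longest transcript (log axis) for each measured gene of 15 lists, with a vertical line at each list's median and the 9 genes studied here in red. The globins (median 8505) lie near the macrophage and monocyte markers, the other 5 genes (median 91.6) near the eosinophil and basophil list. The list of embryonic and other globins has the lowest median.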

How the data were processed

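RNA was sequenced from CD11b+Ly6C+ and CD11b+Ly6G+ splenocytes of wt and LmnaMyeKO mice. The authors trimmed reads with Cutadapt 1.14, mapped them to mm10 using STAR 2.5.2b, estimated counts using RSEM 1.3.0 with GENCODE M12 and ran DESeq2 1.20.0. The signal used here is the mean of counts divided by size factors that the authors deposited for each gene. The other 6 value columns hold the authors' log2 fold change, its standard error, the statistic, p-values and a fold change for 1 comparison, and were not used. The planned count test could not be run without counts of single samples. RSEM shares reads between similar copies by estimation, so copies are less certain than their sum. The methods state sequencing depth only as a range over samples, and the table gives no depth of its own beyond the relative size factors.

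The value of 1 read in each library was solved from the steps of the low means, with a tolerance of 1e-08, and whole reads were then enumerated up to a mean of 2.6. On simulated means of 22546 genes, 99.6% of 5229 low genes had 1 solution, and all 5210 of these were right. Lengths, positions and transcripts came from GENCODE M21 on mm10 (23004 of 23084 identifiers found) and promoters from RefSeq. For the 28 symbols that occur more than once, the higher row was used. Coding lengths leave out the stop codon. Genes named are the 9 chosen and those of the pathway and marker lists, of which a few are not reported here. Genes and lists were chosen with earlier results of these data known. Python 3.11.15, numpy 2.4.6, pandas 2.3.3 and scipy 1.17.1 were used.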

Additional observations from a re-analysis of the deposited data

How the results depend on the processing

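No paired analysis was possible because only 1 pooled mean per gene was used. For the same reason fits with another normalization or filter, and fits without each replicate, were not run, and the spread between samples is unknown. The median percentile of the 9 genes was 72.4 among all genes listed, 60.4 among protein-coding genes, 55.6 among genes with a mean of at least 10, and 67.7 with the copies of each globin pair added together. The first 2 of these alternatives leave out low genes, and the last leaves fewer genes. The median level per kilobase was 271 with the longest transcript, 827 with the shortest coding transcript and 622 with the coding length. The ratio of alpha to beta globin per kilobase was 1.04 with the longest transcript, 1.03 with the coding length, 0.717 with the shortest coding transcript and, in a comparison chosen after the data were seen, 0.996 with no division by length. For single genes, the percentile moved beyond its 95% Wilson interval in 9 of 9 under each of the smaller gene sets and in 4 of 4 globins with copies added. That interval treats the genes listed as a random draw and measures no spread between samples. Adding copies can only raise a percentile, so the direction in the globins was fixed in advance. The level per kilobase moved beyond counting error in 9 of 9 with the coding length and in 4 of 9 with the shortest coding transcript. These counts follow from the lengths alone and do not test the levels. The coding length is shorter than the longest transcript in every gene. In the 5 genes that stayed the same, the shortest coding transcript is as long as the longest.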
